A study of Homo sapiens with 6 samples.

Results

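The TRIM genes of a human lung cancer cell line were compared between cells with a control shRNA and cells with an shRNA against Ephexin1. They were taken as every row of the expression table whose name is TRIM followed by digits and at most 1 letter, which gave 72 of the 26255 genes listed. The measurements are RNA-seq of NCI-H1299 cells in 6 libraries, 3 with the pSilencer2.1-U6 control shRNA (shControl) and 3 with the Ephexin1 shRNA in the same vector (shEphexin1). The study set out to learn how mRNA levels differ between these cells. Knockdown was stable, in selected clones, and the 3 shEphexin1 labels have a common stem. These libraries may therefore be repeats of 1 clone, and the p-values then describe the spread between libraries, which may be technical. Values are FPKM, fragment numbers scaled for the length of the transcript and the size of the library, so levels can be set side by side between genes. The number of reads behind a value is unknown. A value of 0 is given only as listed, because H3F3A, a histone gene that every cell uses, was listed at 0 in 6 of 6 libraries.

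TRIM proteins are named for a tripartite motif of a RING finger, B-boxes and a coiled coil. The RING finger recruits an E2 enzyme loaded with ubiquitin, and the end of the protein, which differs between subfamilies, chooses the target. Many members with a PRY-SPRY domain at that end restrict viruses or tune RNA sensing and interferon signalling, several are themselves induced by interferon, and other subfamilies act in chromatin, on microtubules or in muscle. A few members lack the RING finger.

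Only a pair of neighbours on the short arm of chromosome 11, TRIM6 and TRIM34, were called different between the groups in the fit described here, and both were higher in shEphexin1. The mean of TRIM6 was 3.67-fold that of the control libraries. TRIM34 passed the filter through the group where it was high, and was called in only 7 of 19 alternatives. TRIM25 and TRIM37, on the long arm of chromosome 17, were lower with an adjusted p under the threshold but by less than 2-fold. Most genes around them also had log2 fold changes below 0. The abundant members TRIM28, TRIM27, TRIM59 and TRIM7 had values that overlapped between the groups. TRIM28 was lower in shEphexin1 within each replicate number, but the pairing by number is only a hint from these data. A further pair, TRIM73 and TRIM74, are nearly identical in sequence, and their values jumped from one row to the other between libraries.

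The sequences just upstream of the start sites of TRIM6 and TRIM34 are shown because these neighbours moved together. They are the last 120 bases before the annotated start in RefSeq on GRCh38.p14, both on the plus strand, at chr11:5596517-5596636 for TRIM6 and chr11:5624881-5625000 for TRIM34. Capitals mark a match to GAAANNGAAA, the core of the element through which interferon-activated factors bind, read here on the minus strand.
TRIM6: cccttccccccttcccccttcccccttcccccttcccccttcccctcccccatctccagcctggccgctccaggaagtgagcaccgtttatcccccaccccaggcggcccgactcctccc
TRIM34: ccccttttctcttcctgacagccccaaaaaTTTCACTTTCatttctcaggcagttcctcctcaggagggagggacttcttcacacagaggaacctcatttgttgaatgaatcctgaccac

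The motif was searched on both strands in windows of 300 bases, 250 before and 50 after each start, with overlapping matches allowed. It was found in 3.57% of the 35116 promoters of the table and, counted by gene, in 4.38% of 27305 genes. Of the 72 TRIM genes, 56 have an entry in that table, and 10 of these hold a match in at least 1 promoter. TRIM34 and TRIM5 hold the same 10 letters, TTTCACTTTC, from 90 to 81 and from 27 to 18 bases before their starts. TRIM6 holds no match in this window. TRIM14, TRIM16, TRIM21, TRIM26 and TRIM69 are among the others. A match is a description of the letters and does not show that a factor bound there.

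TRIM73 and TRIM74 are shown because they are near-identical copies with a row each. Both code for short RING and B-box proteins. The 120 bases below begin 250 bases before their starts in RefSeq on GRCh38.p14, at chr7:75395379-75395498 on the plus strand for TRIM73 and at chr7:72969597-72969716 on the minus strand for TRIM74. The capital marks the base that differs, which is the only difference in the 300 bases of the window.
TRIM73: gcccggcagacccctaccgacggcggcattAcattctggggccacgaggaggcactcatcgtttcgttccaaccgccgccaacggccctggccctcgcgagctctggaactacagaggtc
TRIM74: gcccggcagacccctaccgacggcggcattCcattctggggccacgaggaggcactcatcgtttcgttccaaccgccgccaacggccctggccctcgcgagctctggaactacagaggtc

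Of the 72 TRIM genes, 47 reached 0.1 FPKM in at least 3 of the 6 libraries and were tested, and 40 of these had a mean of at least 1 FPKM. Another 15 were listed at 0 in every library, among them TRIM29 and TRIM63 and the repeated genes of the TRIM43, TRIM49 and TRIM64 groups. The remaining 10 were above 0 in at least 1 library but did not pass the filter. NGEF, which codes for Ephexin1, was lower in every shEphexin1 library, at 68.9% of the control mean, with a log2 fold change of -0.53 (limma adjusted p = 0.103, and p = 0.1 in a two-sided exact permutation test, the smallest it can give with 3 libraries against 3). The adjusted p of NGEF was 0.00284 with the replicate number as a block, 0.00572 with a batch term for replicate 2 and 0.00157 with a correction for GC content and length, while the fold stayed under 2. The libraries carried the mesenchymal marker VIM at 1979 to 2670 FPKM. The keratin KRT18 was at 67.6 to 109 FPKM in controls and 36.3 to 54.7 FPKM in shEphexin1 (log2 fold change -0.94, limma adjusted p = 0.0439), and KRT8 at 5.13 to 8.44 FPKM and 2.65 to 3.48 FPKM (log2 fold change -1.07, limma adjusted p = 0.0304). The groups did not overlap in either keratin, and the part of this in other results was not tested. CDH1 and NKX2-1 were listed at 0 in all 6 libraries, and EPCAM, SFTPB and SFTPC were at 0.312 FPKM or less in each. Of 7 markers of leukocytes, endothelium and fibroblasts, 2 (PTPRC and CD3E) were listed at 0 in every library, and the 7 together summed to 0.570 to 0.728 FPKM in shControl and 0.707 to 1.02 FPKM in shEphexin1. Replicate 2 stood apart in both groups. Across 12211 genes its deviation from its group's mean fell with GC content (Spearman's rho of -0.796 for shControl and -0.867 for shEphexin1).

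The TRIM genes tested spanned from 0.251 to 90.8 FPKM in the mean of the 6 libraries, with a median of 6.98 FPKM. TRIM28, the corepressor that KRAB zinc finger proteins recruit to silence chromatin, was the highest. It was at 105, 77.4 and 117 FPKM in the control libraries and 82.6, 61.3 and 102 FPKM in the shEphexin1 libraries. Replicate 2 was the lowest of each group, and the groups overlapped (log2 fold change -0.30 ± 0.220, standard error, limma adjusted p = 0.478). Within each replicate number the shEphexin1 library was the lower one, and the adjusted p was 0.00449 with the replicate block. The labels do not give this pairing, which is a hint from the data and weak for replicate 1. With the block, 25.7% of all genes tested passed by adjusted p. With the correction for GC content and length, the log2 fold change was -0.45 (limma adjusted p = 0.00188). This correction also raised the calls at 2-fold over all genes, from 143 to 294 higher and from 160 to 241 lower.

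TRIM27 followed, a PRY-SPRY member first found as a fusion partner of the RET kinase. It was at 43.9, 37.0 and 40.1 FPKM with the control shRNA and 43.8, 37.3 and 43.0 FPKM with the Ephexin1 shRNA, and its log2 fold change was 0.04 ± 0.116. The third was TRIM59, which is anchored in membranes, at 36.7, 44.2 and 31.3 FPKM in controls against 34.5, 45.0 and 28.3 FPKM in shEphexin1. In TRIM59, replicate 2 was the highest of each group rather than the lowest, and the groups overlapped here too. TRIM7, a PRY-SPRY member known to bind glycogenin, was at 29.8, 23.0 and 33.5 FPKM against 30.8, 19.7 and 32.3 FPKM. TRIM27, TRIM59 and TRIM7 are neighbours in the order of levels, and the range of TRIM59 over the 6 libraries overlaps those of both others. TRIM27 lies above TRIM7 in every library. TRIM28 lies above all 3 in every library.

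TRIM44, which has no RING finger and carries a zinc finger of the kind found in ubiquitin-specific proteases, was the fifth. It was at 27.3, 27.1 and 27.9 FPKM in shControl, and the shEphexin1 libraries gave 26.3, 25.7 and 23.9 FPKM. All 3 shEphexin1 values lay below the control values, but the fitted difference was small (log2 fold change -0.12 ± 0.097, limma adjusted p = 0.538). Its range lies within that of TRIM7.

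**Figure D1:**
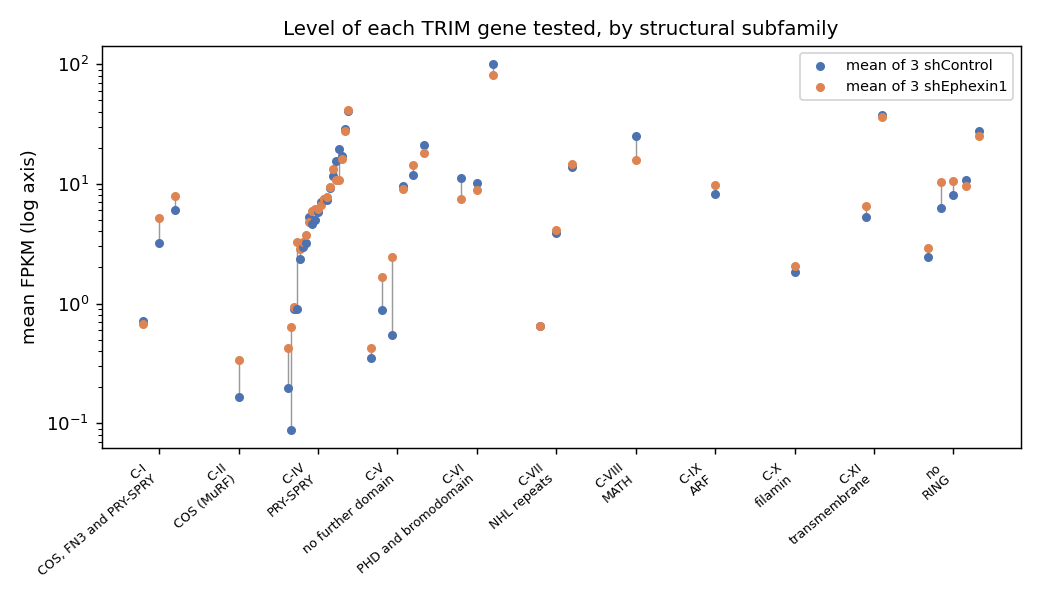
Mean FPKM (log axis) of the 47 TRIM genes tested in the 3 shControl and the 3 shEphexin1 libraries, grouped by structural subfamily, with a grey line joining the 2 means of a gene. TRIM28 stands highest at a mean of 90.8 FPKM over all libraries, and the longest grey lines, at low levels, belong to TRIM34, TRIM73 and TRIM6.

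With the thresholds set at 0.025 for the adjusted p and 2 for the fold, 2 of the 47 TRIM genes were called higher in shEphexin1, where 0.893% of the 16020 genes tested were. TRIM34, 1 of the 2, passed the filter through the group where it was high. Nothing about the family is therefore read from this count, or from those below that hold TRIM34. None was called lower by limma (0 of 47, where 0.999% of all genes tested were). At an unadjusted p of at most 0.05, 11 of 47 passed, 7 higher and 4 lower, against 23.3% of all genes tested. The TRIM genes tested had a median log2 fold change of 0.08, against -0.0093 over all genes tested, with 28 above 0 and 19 below. The values of the groups did not overlap in 13 TRIM genes (27.7%), near the share over all genes (28.3%).

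TRIM6 builds free ubiquitin chains that promote the kinase IKKε in interferon signalling. It lies on the plus strand of chromosome 11 from 5617339 to 5634188 (GRCh37). In shControl it was at 0.693, 1.01 and 0.982 FPKM, and in shEphexin1 at 3.00, 3.29 and 3.57 FPKM. The lowest shEphexin1 library was thus well above the highest control library. The means were 0.894 ± 0.175 FPKM and 3.29 ± 0.282 FPKM (SD, n = 3 each). The log2 fold change was 1.78 with a standard error of 0.195 and a 95% interval from 1.32 to 2.24 (limma adjusted p = 0.00417). The call is lost when shControl replicate 1 (adjusted p = 0.0280), shEphexin1 replicate 1 (0.0302) or shEphexin1 replicate 3 (0.0275) is left out, while the log2 fold change stays between 1.63 and 1.87 over the 6 libraries left out in turn.

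TRIM34 is a relative of TRIM5 that acts on some retroviral capsids. As annotated in GENCODE on GRCh37, it starts 6806 bases after the end of TRIM6, from 5640994 to 5665628 on the same strand. The sequence shown above was placed by the RefSeq start, which can differ from this one. It was at 0.0253, 0.0717 and 0.167 FPKM in the control libraries and 0.831, 0.549 and 0.521 FPKM in the shEphexin1 libraries. Only 1 of its control libraries reached 0.1 FPKM, so it entered the test through the group where it was high. The groups did not overlap, and the log2 fold change was 2.01 with a standard error of 0.364 (limma adjusted p = 0.0229). This call is the less firm of the pair: TRIM34 was called in 7 of 19 alternatives and TRIM6 in 17 of 20. TRIM34 was not called whichever of the 6 libraries was left out (adjusted p from 0.0336 to 0.113), and with a pseudocount of 1 FPKM its log2 fold change was 0.58.

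TRIM6-TRIM34, a readthrough transcript whose exons overlap those of both genes, has a row of its own with group means of 0.0134 and 0.0040 FPKM and was not tested. Fragments of the shared exons can be assigned to any of the 3 rows. Their sum was 0.758, 1.08 and 1.15 FPKM in controls against 3.84, 3.84 and 4.09 FPKM in shEphexin1. The sum differed by a log2 fold change of 1.89 with a standard error of 0.191 (limma adjusted p = 0.00321, tested in place of its parts). It was chosen after the values had been seen.

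The next genes of this cluster are TRIM5 and TRIM22. TRIM5, which blocks retroviral capsids, spans 5684425 to 5959849 on the opposite strand. It was at 3.02, 3.24 and 2.68 FPKM with the control shRNA and 3.51, 3.21 and 3.13 FPKM with the Ephexin1 shRNA, and the groups overlapped (log2 fold change 0.14, 95% interval from -0.20 to 0.48). TRIM22, an interferon-induced antiviral gene, lies from 5710840 to 5758319 within the span annotated for TRIM5. It was listed at 0 in the 3 control libraries and at 0.0866, 0.105 and 0.101 FPKM in shEphexin1, 2 of which reach the filter, so it was not tested. The 12 other genes with a mean of at least 1 FPKM within 1 Mb of TRIM6 had a median log2 fold change of 0.11, with 8 above 0 and none called. That of the arm, 11p, was 0.03 over 219 genes.

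**Figure D2:**
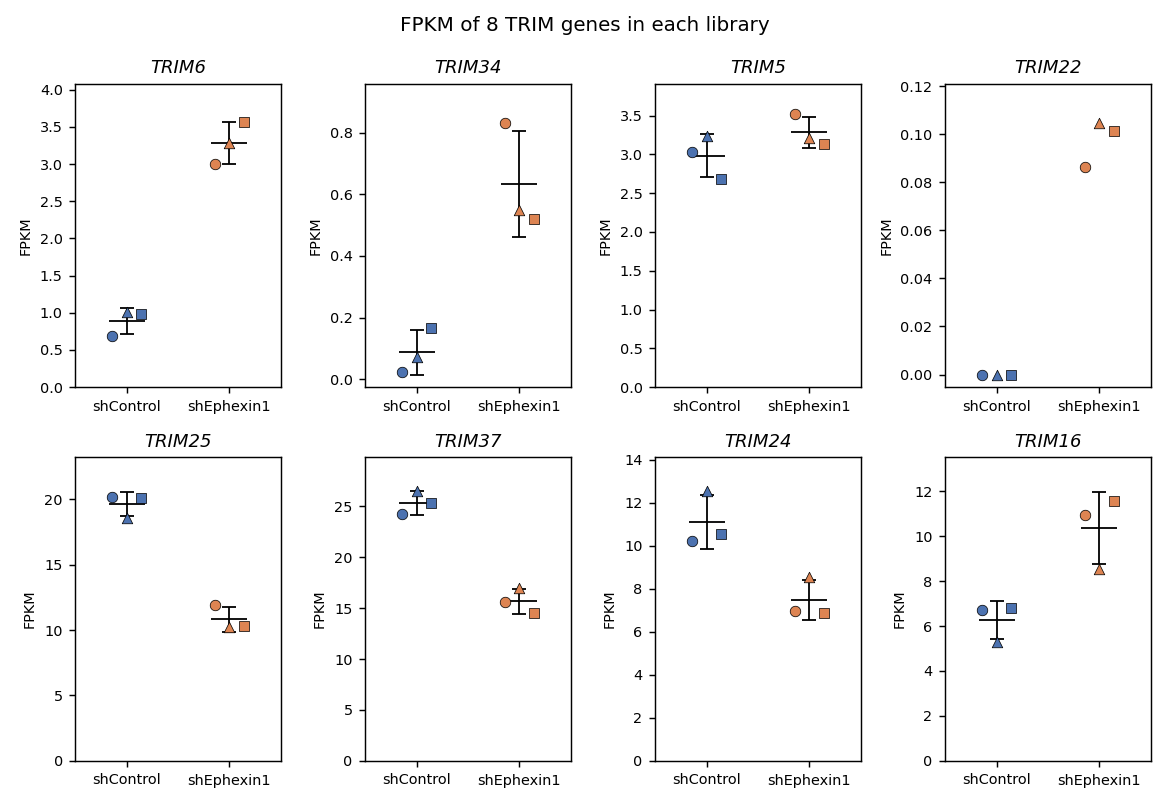
FPKM of 8 TRIM genes in each library (circle, triangle and square for replicates 1, 2 and 3), with the mean (horizontal line) and SD of 3 libraries, except for TRIM22, whose control libraries are listed at 0. TRIM6 and TRIM34 are higher in every shEphexin1 library, TRIM5 overlaps, TRIM25, TRIM37 and TRIM24 are lower and TRIM16 is higher in every shEphexin1 library.

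TRIM25 is the ligase that modifies the RNA sensor RIG-I, and its gene spans 54913748 to 54991441 of chromosome 17 (GRCh37, minus strand). It was at 20.2, 18.5 and 20.1 FPKM in controls against 11.9, 10.2 and 10.3 FPKM in shEphexin1. Every shEphexin1 value was far below every control value. The means were 19.6 ± 0.936 FPKM and 10.8 ± 0.946 FPKM (SD, n = 3 each), with a log2 fold change of -0.86 and a standard error of 0.115 (limma adjusted p = 0.00927). The 95% interval from -1.13 to -0.59 includes a 2-fold difference, and the fitted fold was 1.81.

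TRIM37, the member with a MATH domain, acts in peroxisome import and centriole assembly. It lies on the same strand from 57059999 to 57184282. It was at 24.2, 26.5 and 25.3 FPKM in shControl, and the shEphexin1 libraries gave 15.6, 16.9 and 14.5 FPKM, again without overlap. Its log2 fold change was -0.69 with a standard error of 0.110 (limma adjusted p = 0.0158).

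By adjusted p alone, with no threshold on the fold, TRIM6, TRIM34, TRIM25 and TRIM37 passed, 4 of 47 against 3.41% of all genes tested. TRIM34 passed the filter through the group where it was high. It is in this count and in the count with the block below, so nothing about the family is read from either. TRIM25 no longer passed without shControl replicate 1 (limma adjusted p = 0.0766), shControl replicate 3 (0.0482), shEphexin1 replicate 1 (0.0413) or shEphexin1 replicate 3 (0.0416). TRIM37 passed only when shEphexin1 replicate 2 was the library left out (limma, 0.0163), and was at 0.0447 to 0.0946 with each of the others left out in turn. With the replicate number as a block, 10 of 47 passed, 5 in each direction, against 25.7% of all genes tested, and the calls at 2-fold stayed TRIM6 and TRIM34. The 6 that the block added were TRIM16, TRIM16L and TRIM46, which were higher, and TRIM24, TRIM28 and TRIM65, which were lower.

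Most genes around TRIM25 and TRIM37 also had log2 fold changes below 0. Of the 14 other genes with a mean of at least 1 FPKM lying from TRIM25 to TRIM37, 13 were below 0, with a median log2 fold change of -0.61 and none called. Along 17q, the median was -0.61 over 61 genes between 45 and 50 Mb, -0.78 over 8 genes between 50 and 55 Mb and -0.59 over 37 genes between 55 and 60 Mb. It was between -0.11 and 0.14 in the 4 bins from 25 to 45 Mb and between -0.39 and -0.21 in the 5 bins from 60 to 85 Mb. With the median of each chromosome arm subtracted (-0.21 for 17q), TRIM25 was at -0.65 and TRIM37 at -0.48, and neither passed by adjusted p (limma, 0.0272 and 0.0574). Within 1 Mb, the median was -0.69 over 7 other genes around TRIM25 and -0.69 over 20 around TRIM37. These local medians were not subtracted. Exons of TRIM25 overlap those of C17orf67 (log2 fold change -0.92) on the same strand. Exons of TRIM25 also overlap those of DGKE, and exons of TRIM37 those of PPM1E, on the opposite strand. Whether the counting used the strand is not given in the sources used here. Of the 47 TRIM genes tested, 24 have an exon that overlaps an exon of another annotated gene.

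The other TRIM genes of 17q are TRIM65 and TRIM47. TRIM65, a ligase for the RNA sensor MDA5, was at 15.4, 12.5 and 18.9 FPKM in the control libraries and 12.3, 8.20 and 12.1 FPKM in the shEphexin1 libraries. The groups did not overlap by a narrow margin, and the log2 fold change was -0.52 ± 0.213 (limma adjusted p = 0.197, and 0.00490 with the replicate block). Both lie in the bin from 70 to 75 Mb, where the median was -0.35 over 64 genes. TRIM47 lay at 0.08.

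**Figure D3:**
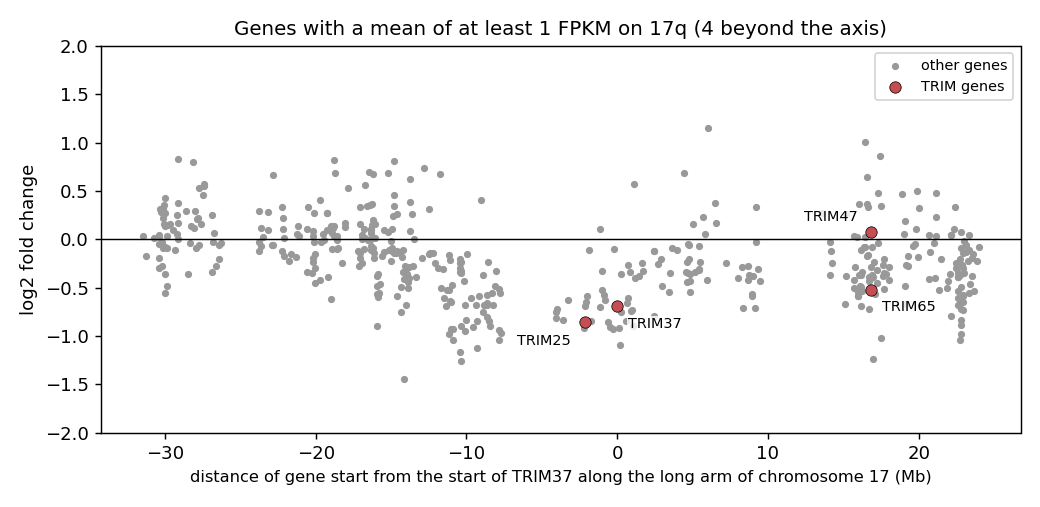
Log2 fold change (shEphexin1 over shControl) of 505 genes with a mean of at least 1 FPKM on the long arm of chromosome 17, against the distance of their start from that of TRIM37 in Mb, with 4 genes beyond the axis. TRIM25 at -0.86 and TRIM37 at -0.69 lie in a stretch where most genes are below 0, while TRIM47 lies at 0.08.

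TRIM24, a histone reader and coregulator of nuclear receptors, lies on 7q, where the arm median was 0.30 over 407 genes. It was at 10.2, 12.5 and 10.6 FPKM with the control shRNA and 6.98, 8.56 and 6.88 FPKM with the Ephexin1 shRNA, with replicate 2 the highest of each group and no overlap. The log2 fold change was -0.57 ± 0.145 (limma adjusted p = 0.0617), and -0.87 with the arm median subtracted (limma adjusted p = 0.0240). The 7 other genes at 1 FPKM or more within 1 Mb of it were all above 0, with a median of 0.31. TRIM24 passed by adjusted p alone with the replicate block (0.00192) and in replicates 1 and 3 alone (limma, 0.0160).

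The subfamily of TRIM24 holds a PHD finger and a bromodomain, and is classed here with 3 members, TRIM24, TRIM28 and TRIM33. All 3 had log2 fold changes below 0, with a median of -0.30. TRIM66, classed here with the members that lack the RING finger and so left out, was at 0.22 (limma adjusted p = 0.395). None of the 3 was called by limma, and TRIM24 alone of them had an unadjusted p of at most 0.05. Of 14 chromatin and SMAD partners of these proteins, 7 were above 0 and 7 below, with a median of -0.02. None was called by limma, while 5 had an unadjusted p of at most 0.05 (23.3% of all genes tested did), and CBX1 and SMAD3 passed by adjusted p alone (3.41% of all genes tested did). CBX1 (HP1β), which binds TRIM28, had a log2 fold change of -0.93 (limma adjusted p = 0.00287). It lies on 17q between 45 and 50 Mb, where the median was -0.61 over 61 genes. SMAD2 was at -0.63 (limma adjusted p = 0.0885) and lies on 18q, where the arm median was -0.44 over 124 genes. SMAD3, named after its value was seen, was at 0.52 (limma adjusted p = 0.0215).

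The PRY-SPRY subfamily was the largest, with 21 of its members tested. Of these, 14 had log2 fold changes above 0 and 7 below, with a median of 0.08. It holds TRIM6, TRIM34 and TRIM25, and the other 18 were not called and had adjusted p-values above 0.025. TRIM69, an interferon-induced member, was at 0.233, 0.262 and 0.0993 FPKM in controls against 0.373, 0.395 and 0.499 FPKM in shEphexin1. These low values did not overlap, and the log2 fold change was 0.85 ± 0.319 (limma adjusted p = 0.166).

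TRIM16, which lacks the RING finger and acts in the clearance of damaged lysosomes, was at 6.72, 5.29 and 6.80 FPKM in shControl, and the shEphexin1 libraries gave 10.9, 8.53 and 11.6 FPKM. The groups did not overlap although replicate 2 was the lowest of each, and the log2 fold change was 0.71 ± 0.169 (limma adjusted p = 0.0503). The adjusted p was 0.00112 with the replicate block and 0.00855 in replicates 1 and 3 alone (limma). Its 16 neighbours within 1 Mb on 17p at 1 FPKM or more had a median of 0.21. TRIM16L, a shorter relative on the same arm, can share fragments with it. Their sum was higher by 0.55 ± 0.179 on the log2 scale (limma adjusted p = 0.118).

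In the remaining subfamilies, the highest member was described by its values. TRIM36, which binds microtubules, was at 6.60, 5.99 and 5.57 FPKM in the control libraries and 7.52, 9.34 and 6.82 FPKM in the shEphexin1 libraries. Its groups did not overlap, but the log2 fold change of 0.37 had an adjusted p of 0.212 (limma). TRIM55, a muscle ring finger protein, was at 0.120, 0.215 and 0.165 FPKM against 0.203, 0.464 and 0.339 FPKM, and 1 shEphexin1 value fell among the controls.

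TRIM8, a RING member with no further named domain, was at 22.3, 17.3 and 24.0 FPKM against 18.3, 13.3 and 22.4 FPKM. Its groups overlapped, with replicate 2 the lowest of each (log2 fold change -0.25 ± 0.214). TRIM32, which carries NHL repeats and is mutated in a limb-girdle muscular dystrophy, was at 13.9, 13.8 and 14.0 FPKM against 15.6, 13.5 and 15.0 FPKM. It was among the steadiest members, with a log2 fold change of 0.08 and a 95% interval from -0.18 to 0.33.

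TRIM23, which carries an ARF GTPase domain, was at 7.99, 9.18 and 7.72 FPKM against 8.58, 11.7 and 8.95 FPKM. TRIM45, the member with a filamin domain, was at 1.64, 1.95 and 1.93 FPKM against 2.02, 1.97 and 2.24 FPKM, higher in every shEphexin1 library by a small margin (log2 fold change 0.17 ± 0.161). TRIM42, alone in its subfamily, was listed at 0 in 5 libraries and at 0.0329 FPKM in shEphexin1 replicate 1.

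**Figure D4:**
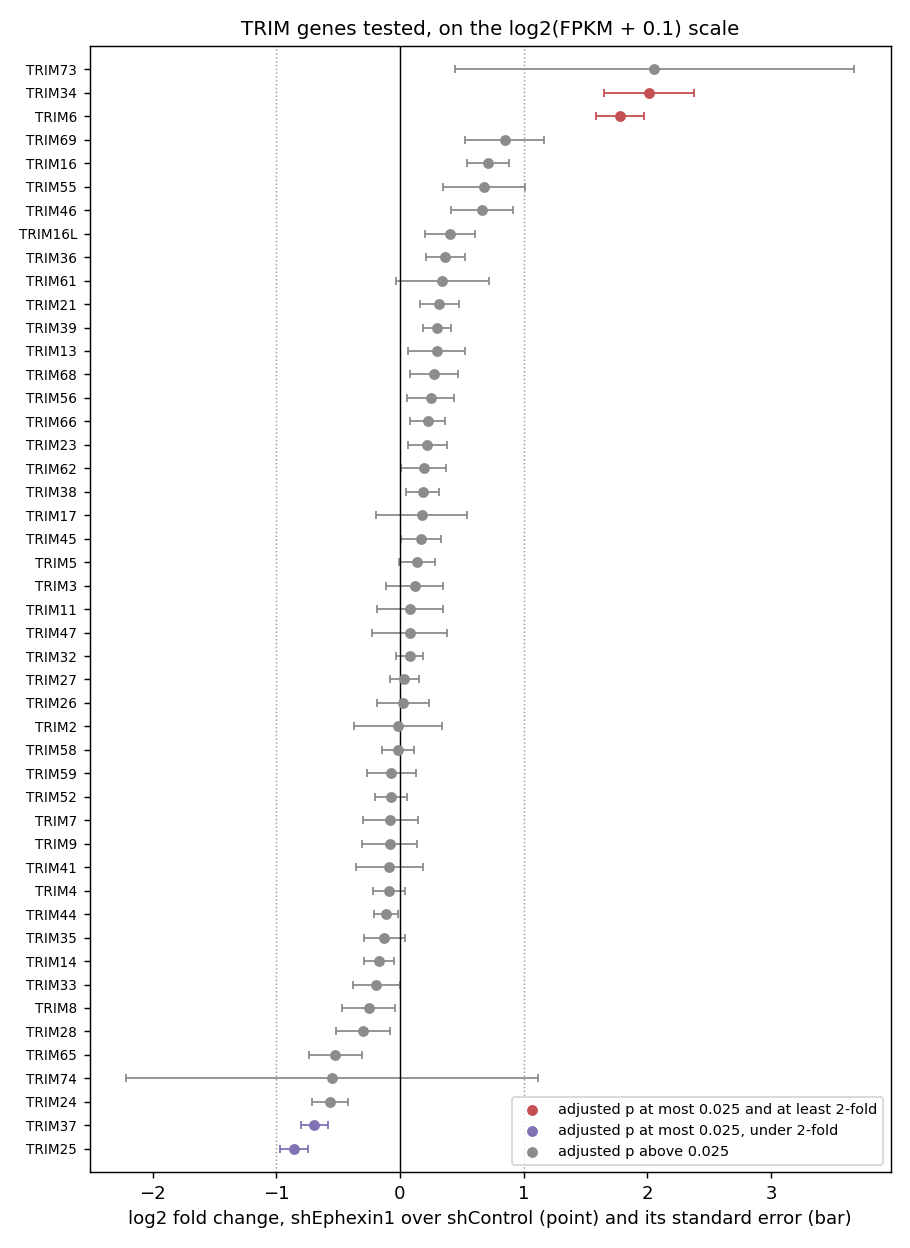
Log2 fold change (shEphexin1 over shControl, point) and standard error (bar) of the 47 TRIM genes tested, in order, with dotted lines at a 2-fold difference. TRIM6 and TRIM34 are called higher, TRIM25 and TRIM37 pass the adjusted p only, and the wide bars belong to TRIM73 and TRIM74.

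TRIM73 had the largest fitted increase of the family and TRIM74 the fourth largest decrease, and neither passed the test. TRIM73 was at 1.64, 0.0058 and 0.0094 FPKM with the control shRNA and 4.48, 2.89 and 0.0058 FPKM with the Ephexin1 shRNA. TRIM74 was at 0.00062, 0.975 and 1.68 FPKM and at 0.0010, 0.0199 and 4.97 FPKM in the same libraries. In each of the 6 libraries nearly all of the value sat in 1 of these rows. The annotated transcripts of the pair that are 1350 bases long differ at 4 positions (99.7% identity), and those of 1286 bases at 10 (99.2% identity). The longest identical run was 446 bases in each comparison. How fragments were assigned between TRIM73 and TRIM74 was not tested.

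The sum of TRIM73 and TRIM74 was 1.64, 0.981 and 1.69 FPKM with the control shRNA and 4.48, 2.91 and 4.97 FPKM with the Ephexin1 shRNA. It was higher in every shEphexin1 library than in every control library, with means of 1.44 ± 0.395 and 4.12 ± 1.08 FPKM (SD, n = 3 each). The log2 fold change was 1.46 with a standard error of 0.279, and the adjusted p missed the threshold (limma, 0.0278). The sum was formed after the values had been seen. Both genes lie on 7q, where the arm median was 0.30. Between TRIM74 and TRIM73, 27 genes at 1 FPKM or more had a median log2 fold change of 0.08.

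**Figure D5:**
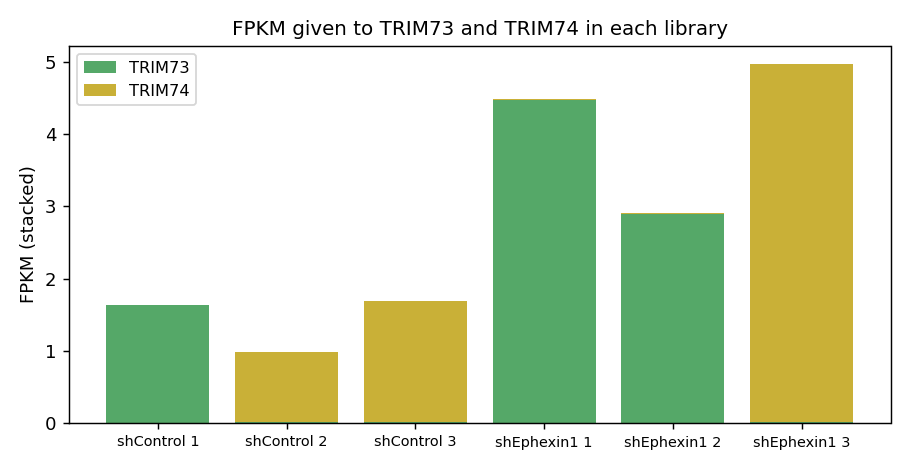
FPKM given to TRIM73 and TRIM74 in each of the 6 libraries, stacked. Each bar is nearly all of 1 gene, and the 3 shEphexin1 bars reach 2.91 to 4.97 FPKM against 0.981 to 1.69 FPKM in shControl.

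The TRIM genes were then set beside the genes they work with. Of 12 TRIM genes known to be induced by interferon (PML included), 11 were tested, 9 had log2 fold changes above 0 and the median was 0.25. The list holds TRIM6 and TRIM34, which were called, and TRIM25, which was lower. Over all genes tested, 7835 of 16020 were above 0 and 0.893% were called higher. TRIM34 passed the filter through the group where it was high, and the list was written with earlier results known. Nothing is therefore read from these counts. Of 21 genes of RNA sensing and interferon signalling, 14 were above 0 and 7 below, with a median of 0.10. None was called by limma, and 4 were at 0.05 or less before adjustment, all above 0, against 23.3% of all genes tested in either direction. DHX58 (LGP2) was listed at 0 in 2 control libraries and at 0.173 FPKM in the other, and at 0.307, 0.251 and 0.299 FPKM in shEphexin1, so it passed the filter through the group where it was high and no fold is given. DHX58 is among the 14 above 0 and among the 4, so nothing is read from these counts. IRF9 had a log2 fold change of 0.73 (limma adjusted p = 0.0442).

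Of 19 genes for ubiquitin and for the E1 and E2 enzymes that serve RING ligases, 4 were above 0 and 15 below, with a median of -0.12. None was called by limma, and 5 had an unadjusted p of at most 0.05, all below 0, against 23.3% of all genes tested in either direction. UBE2D1, an E2 that many RING ligases use, was at -0.95 (limma adjusted p = 0.0446), and UBE2V1, a partner of UBE2N in building chains, was at -0.59 (limma adjusted p = 0.0340). UBE2D1 lies on 10q, where the arm median was -0.30, and UBE2V1 on 20q, where it was -0.22.

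Of 11 rows of the family under other symbols, 7 were tested, 4 were above 0 and 3 below, and none was called by limma, while 3 had an unadjusted p of at most 0.05, against 23.3% of all genes tested. RNF207 was at 1.17 (limma adjusted p = 0.0661) and the readthrough row TRIM39-RPP21 at -1.45 (limma adjusted p = 0.388). TRIM39 itself was at 0.30, and the sum of the 2 rows at 0.06.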

How the data were processed

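TRIzol-extracted total RNA was sequenced on an Illumina NovaSeq after stranded library preparation. The authors aligned reads to GRCh37/hg19 with TopHat 2.0.13 and obtained FPKM from Cuffdiff (Cufflinks 2.2.1, geometric normalization, pooled dispersion), and these are the deposited values. Read counts were not used here, so depth is unknown. Values were compared as log2(FPKM + 0.1) with limma 3.58.1 (eBayes with trend) under R 4.3.3, and p-values were adjusted by Benjamini-Hochberg over the 16020 genes at 0.1 FPKM or more in at least 3 of 6 libraries. Fold changes are on this scale, which understates those of low genes. The fit was tested on simulated data. Positions are from GENCODE 44 on GRCh37, and promoters from RefSeq on GRCh38.p14, which was used for sequence only. Start sites can differ between these annotations, so the distances of motifs from starts hold for RefSeq only. All 6 value columns were mapped to a library by name.

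Same-numbered libraries deviated together across 12638 genes (Pearson's r = 0.234, 0.639 and 0.513), so the numbers were taken to pair them, as a hint from the data. Pairs with unlike numbers were at -0.569 to 0.149, so the pairing of replicate 1 was weak. The deviations also followed GC content, with Spearman's rho of 0.430 to 0.800 in replicates 1 and 3. The part of GC content in the pairing was not tested. The study's methods use no block, and it is an alternative here. The members and lists were chosen with earlier results of these data known. Named were the members called, the 5 largest changes in each direction, the 5 highest, TRIM6, TRIM34, TRIM5, TRIM22 and TRIM6-TRIM34, and the highest of each subfamily. From other lists, genes called and the 2 largest changes were named. The 2 groups were also compared under 21 other settings and 2 more added after seeing the data. Some marker genes are not reported here.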

Additional observations from a re-analysis of the deposited data

How the results depend on the processing

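The number of TRIM genes called higher, 2 in the fit described, was 1 with chromosome arm medians subtracted, a filter of 1 FPKM, no filter, a pseudocount of 0.01 or 1 FPKM, quantile normalization or replicates 1 and 3 alone, and 1 with copies and readthrough rows summed (an alternative chosen after seeing the data, where the sum of TRIM6, TRIM34 and TRIM6-TRIM34 stands for its parts). The gene called was TRIM6 in all the others of these. With 1 library left out, the number was 0 to 1. The number called lower was 0 throughout, except for 2 with no fold threshold (TRIM25 and TRIM37). The replicate block changed neither count, nor any other call at 2-fold among the genes named, but raised the number of all genes called higher from 143 to 309 and of those called lower from 160 to 247. The same held with the block and a correction for GC content and length together, which was also added after seeing the data. The median log2 fold change of the TRIM genes tested lay between 0.04 and 0.16 over 21 alternatives, and NGEF stayed under 2-fold, and so uncalled, in all 21, while its adjusted p passed the threshold in 4 (0.00142 to 0.00572: the block, the batch term for replicate 2, the correction for GC content and length, and this with the block). Signs of small differences turned: TRIM59 was at 0.034 with the correction for GC content and length, with and without the block, and at 0.0088 with quantile normalization, TRIM8 at 0.051 with arm medians subtracted, and TRIM74 at 0.067 with a pseudocount of 1 FPKM and at 0.76 with replicates 1 and 3 alone. With 1 library left out, TRIM27 ranged from -0.025 to 0.11, TRIM59 from -0.24 to 0.089, TRIM7 from -0.23 to 0.15 and TRIM74 from -2.39 to 0.43. The cause of these changes was not tested. Without read counts, the precision of low values such as those of TRIM34 and TRIM22 is unknown.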
